A study of Homo sapiens with 6 samples.

Results

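The genes described here are 39 type I interferon-stimulated genes and nucleic acid sensors, together with HSH2D, an adaptor protein of blood cells that carries an SH2 domain, the fold that binds phosphorylated tyrosines. They make up 40 of the 19845 gene symbols in the deposited count table and were picked by symbol. The choice was made with earlier results of these data known. HSH2D was added because it was lower after COX4I1 targeting in these same libraries, so its values are given as a description with no test. All 40 symbols had a row in the table.

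The 6 RNA-seq libraries come from Molm13-Cas9 cells, an MLL-rearranged leukemia line of myeloid origin into which the Cas9 nuclease was stably introduced, with 3 libraries transduced with sgCtrl and 3 with sgCOX4I1. COX4I1 is a nuclear-encoded subunit of cytochrome c oxidase, the last complex of the mitochondrial electron transport chain, and the comparison asks how the transcripts of leukemia cells differ when it is targeted. Both groups carried Cas9, received a lentiviral ipUSEPR guide vector with a puromycin-resistance gene and were selected in puromycin, and the study describes the replicates of a group as independent guide sequences. All 6 libraries come from 1 line, the labels name no added interferon, and the time from transduction to harvest is not given in the sources used here. Differences between libraries therefore include differences between guides, and p-values measure only the spread between these cultures.

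Type I interferons bind the receptor pair IFNAR1 and IFNAR2, whose kinases JAK1 and TYK2 phosphorylate STAT proteins. A factor that holds STAT2 and IRF9 then binds the interferon-stimulated response element in the promoters of antiviral genes, many of which are also kept at a low level without added interferon. The pathway is fed by sensors of nucleic acids, among them the RNA sensors RIG-I (DDX58) and MDA5 (IFIH1), which signal through MAVS on the mitochondrial outer membrane, and cGAS with STING for cytosolic DNA.

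Total counts lay between 17241014 and 30861943 per library, which leaves a gene with 0 counts an upper limit of 0.0972 to 0.174 CPM (counts scaled to library size), for counting error only. COX4I1 measured 513, 502 and 463 CPM in sgCtrl #1 to #3 against 132, 378 and 133 CPM in sgCOX4I1 #1 to #3, the order used throughout. All sgCOX4I1 libraries were below all sgCtrl libraries, but sgCOX4I1 #2 stood nearer to the controls than sgCOX4I1 #1 and #3. The log2 fold change of -1.21 (SE 0.29) had an adjusted p of 0.0512 (quasi-likelihood test of edgeR, Benjamini-Hochberg over 11861 genes). RNA level does not measure the protein that remains after Cas9 cutting. The 9 myeloid leukemia markers, such as CD33 and MPO, were all detected and summed to between 2461 and 3452 CPM in sgCtrl and between 3136 and 4308 CPM in sgCOX4I1. These sums are set mostly by LYZ, at 1590 ± 479 CPM in sgCtrl and 2717 ± 600.0 CPM in sgCOX4I1 (SD, n = 3 each, log2 fold change 0.77, adjusted p = 0.0534). MPO was the 1 marker of the 9 called, and fell by 1.06 on the log2 scale (SE 0.074), and the other 7 had log2 fold changes from -0.23 (FLT3) to 0.28 (CD68). The part of these markers in the results was not tested. T cell markers summed to at most 0.116 CPM in any library and erythroid markers to at most 0.160 CPM, with 2 of 4 markers at 0 everywhere in each list. B cell markers summed to at most 1.25 CPM. Stromal and epithelial markers summed to between 7.15 and 14.0 CPM, with 2 of 4 at 0. Nearly all of this sum was KRT18, at 6.86 to 13.8 CPM, and COL1A1 was at most 0.713 CPM.

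Most of these genes were lowly expressed, as the plot of levels in each library shows. Mean levels were under 1 CPM for 6 of the 40, from 1 to 10 CPM for 18, from 10 to 50 CPM for 11 and above 50 CPM for 5. IFITM1, IFI27 and IFI44L did not pass the filter on low counts and were not tested. Their counts summed over the 3 libraries of a group were 28, 16 and 16 in sgCtrl and 18, 19 and 8 in sgCOX4I1, and IFI44L had 0 counts in sgCOX4I1 #1. The filter was passed by 37 genes, and IFIT5 and EPSTI1 passed it mainly through the sgCOX4I1 libraries. In bulk RNA, fewer cells that express a gene and less RNA per cell cannot be told apart.

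**Figure D1:**
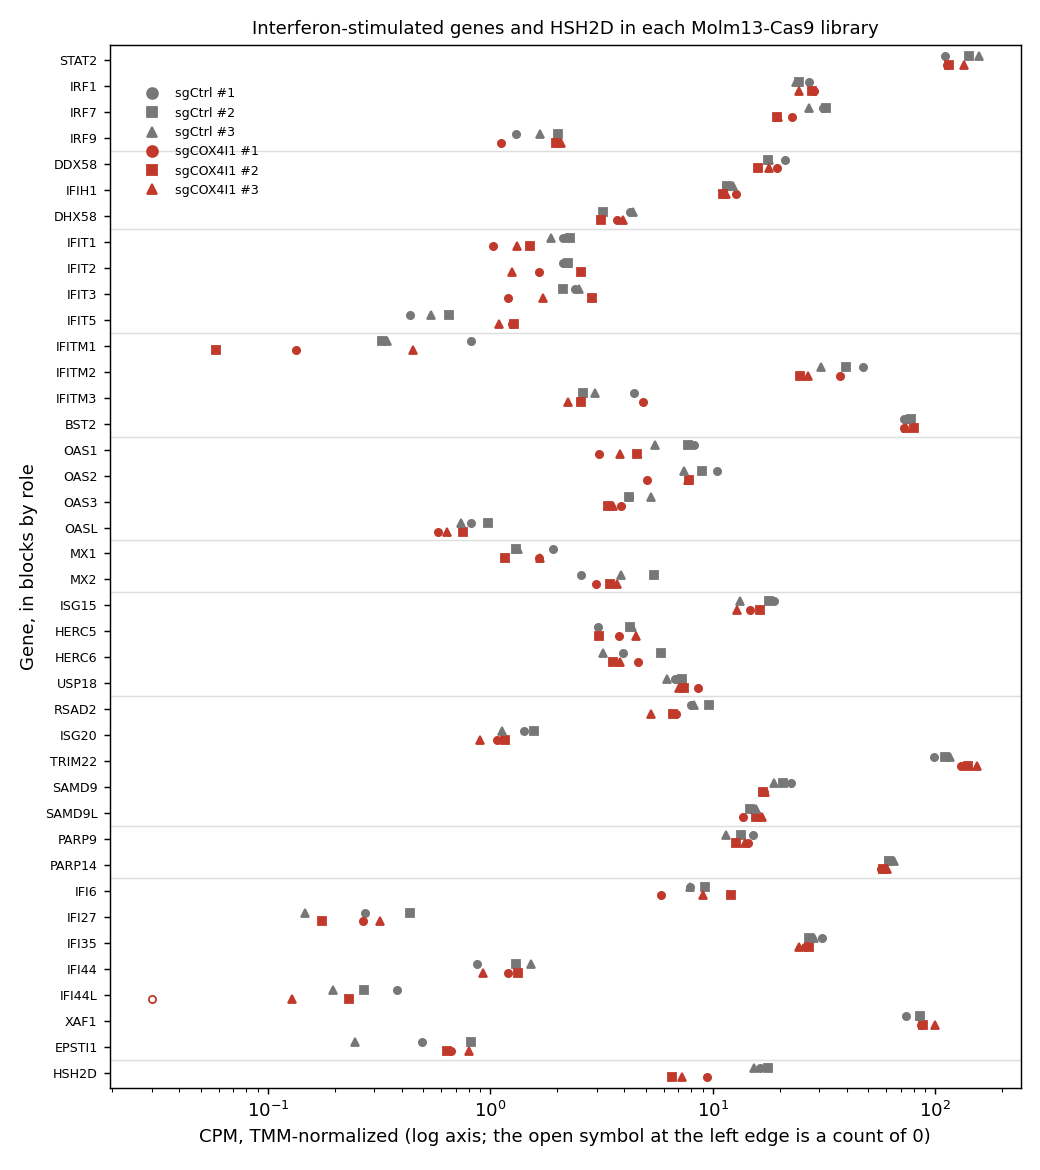
Level of each of the 40 genes in each library, in TMM-normalized CPM on a log axis, with sgCtrl libraries in gray, sgCOX4I1 libraries in red, replicates by symbol and gray lines between functional blocks. HSH2D, IRF7 and OAS1 show red points to the left of all gray points, TRIM22 shows them to the right, and most other rows overlap.

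HSH2D, at chr19:16134028-16158575 on the plus strand of GRCh38, measured 16.3, 17.8 and 15.2 CPM in the sgCtrl libraries and 9.44, 6.57 and 7.23 CPM in the sgCOX4I1 libraries. Every sgCOX4I1 library was below every sgCtrl library, and sgCOX4I1 #2, whose COX4I1 level was closest to the controls, was the lowest. The mean was 16.4 ± 1.27 CPM (SD, n = 3) in sgCtrl and 7.75 ± 1.51 CPM (SD, n = 3) in sgCOX4I1, a 2.12-fold lower level, with a log2 fold change of -1.08 (SE 0.15). Of its annotated exon bases, 6.09% are shared with RAB8A on the same strand. The difference stayed between -1.24 and -0.99 when each library was left out in turn. Because HSH2D was chosen for its fall in these same libraries, this range and the lack of overlap give it no support.

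Beside HSH2D, 36 genes were tested, which were also chosen with earlier results of these data known. Of these, 2 fell (IRF7 and OAS1) and 1 rose (TRIM22) at an adjusted p under 0.05. Over the whole table, 2.08% of tested genes passed this threshold in either direction, 1.02% lower and 1.06% higher. No gene of the 36 also reached a 2-fold change by edgeR, and none did by DESeq2 or limma-voom, against 0.202% of all tested genes by edgeR, 0.0674% of them lower. At an unadjusted p under 0.05 there were 6 lower and 2 higher, beside 8.41% and 8.9% of all genes (17.3% in either direction). IFIT5 is 1 of those 2 and passed the filter mainly through the sgCOX4I1 libraries, so the higher count gives no support. The calls of IRF7, OAS1 and TRIM22 were not kept under every choice of libraries. None of the 36 genes was called when sgCtrl #2, sgCOX4I1 #2 or sgCOX4I1 #3 was left out. In those settings the whole table gave 24, 51 and 89 calls in place of 247, and the cause was not tested.

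Among the interferon-stimulated genes other than HSH2D, most did not separate the groups. Estimates were below 0 for 24 of the 36 and above 0 for 12, with a median log2 fold change of -0.12 beside -0.0023 over all tested genes. The 12 and the median include IFIT5 and EPSTI1, which passed the filter mainly through the sgCOX4I1 libraries. The groups did not overlap for 8 genes that were lower (IRF7, IFIT1, OAS1, OAS3, RSAD2, SAMD9, PARP14 and IFI35) and 3 that were higher (TRIM22, XAF1 and IFIT5, the last with the limit just given). Over all genes, 10.4% were lower without overlap and 11.2% were higher without overlap. Expressed as a percent of the sgCtrl mean, the median gene of the 36 stood at 98.1, 104 and 95.3 in the sgCtrl libraries and at 90.7, 91.0 and 94.0 in the sgCOX4I1 libraries. All sgCOX4I1 libraries were below all sgCtrl libraries on this measure, by less than the sgCtrl libraries differed among themselves, and the difference was not tested. The same median over all tested genes lay between 99.6 and 100.3 in every library. TMM scaling holds that median near 100, so it does not show the scatter of a small set. The summed level of the 39 genes, which a few abundant ones set, was 736, 780 and 772 CPM in sgCtrl and 731, 741 and 776 CPM in sgCOX4I1, and overlapped between groups.

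**Figure D2:**
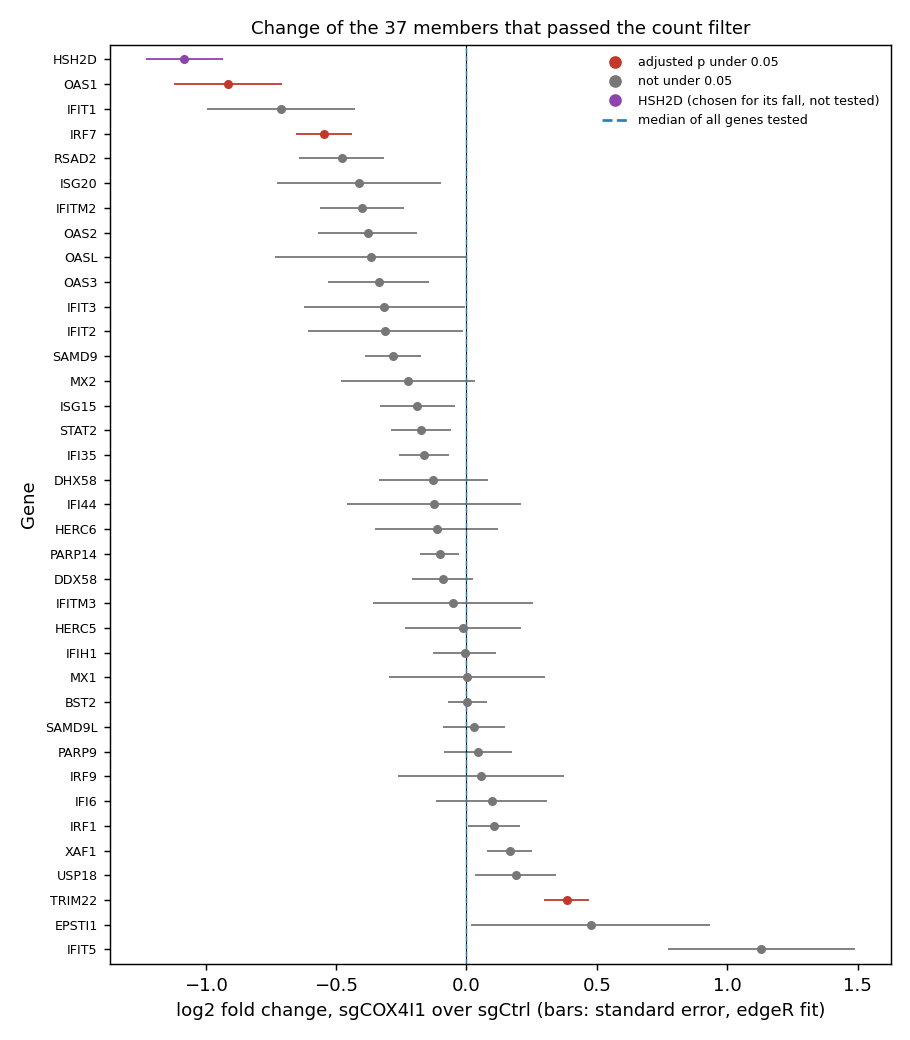
Log2 fold change of sgCOX4I1 over sgCtrl for the 37 genes that passed the filter on low counts, ordered by value, with bars for the standard error of the edgeR fit and a dashed line at the median of all tested genes. OAS1 at -0.91, IRF7 at -0.55 and TRIM22 at 0.38 had an adjusted p under 0.05, and HSH2D at -1.08 is shown without a test.

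Among the transcription factors, only IRF7, which drives interferon and interferon-stimulated genes once phosphorylated, passed the test. IRF7, at chr11:612553-615983 on the minus strand of GRCh38, measured 31.2, 32.2 and 27.0 CPM in sgCtrl and 22.8, 19.4 and 19.7 CPM in sgCOX4I1. The lowest sgCtrl library was above the highest sgCOX4I1 library, and the means were 30.1 ± 2.78 CPM and 20.6 ± 1.86 CPM (SD, n = 3 each). IRF7 fell to 68.4% of the sgCtrl mean, with a log2 fold change of -0.55 (SE 0.11, adjusted p = 0.0210). The estimate was -0.51 without sgCOX4I1 #2, with an adjusted p of 0.110. STAT2, a subunit of the interferon-activated factor, measured 110.1, 142 and 157 CPM in sgCtrl and 113, 115 and 135 CPM in sgCOX4I1. These ranges overlapped (log2 fold change -0.17, adjusted p = 0.473). IRF1, which binds many of the same promoters, had a log2 fold change of 0.11 (SE 0.10). IRF9, the DNA-binding subunit, had 0.06 (SE 0.32) at a level between 1.11 and 2.08 CPM, and 23.9% of its exon bases are shared with another gene on the same strand.

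The RNA sensors did not separate the groups, and the lowest adjusted p of the 3 was 0.745. DDX58 (RIG-I) measured 21.1, 17.6 and 17.9 CPM in sgCtrl and 19.4, 15.9 and 17.8 CPM in sgCOX4I1. IFIH1 (MDA5) measured 11.5, 11.6 and 12.3 CPM against 12.7, 11.1 and 11.4 CPM. DHX58 (LGP2), a regulator of both, ranged from 3.20 to 4.37 CPM in sgCtrl and from 3.14 to 3.93 CPM in sgCOX4I1. The log2 fold changes were -0.09, -0.01 and -0.13, with standard errors from 0.12 to 0.21. For DDX58, 43.2% of its exon bases are shared with another gene on the same strand.

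The 4 IFIT genes encode proteins that bind viral RNA and block its translation, and they lie side by side on chromosome 10. IFIT1 and IFIT5, whose estimates were opposite in sign, both carry matches to the interferon-stimulated response element in the stretch before their start. Neither gene was called, and IFIT5 passed the filter on low counts mainly through the sgCOX4I1 libraries. The promoters of IFIT1 and IFIT5 are shown for their opposite estimates, on the plus strand of GRCh38.p14 from RefSeq. They run from position -180 to position 10, counted from the annotated start with no position 0. Capitals mark the matches to the element, searched as GAAA, any 2 bases and GAAA, here read on the opposite strand. IFIT1 lies at chr10:89392443-89392632 and IFIT5 at chr10:89414388-89414577.
IFIT1: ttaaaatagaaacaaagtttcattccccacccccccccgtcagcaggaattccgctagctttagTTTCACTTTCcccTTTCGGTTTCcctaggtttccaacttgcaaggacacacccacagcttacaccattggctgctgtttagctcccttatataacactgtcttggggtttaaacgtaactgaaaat
IFIT5: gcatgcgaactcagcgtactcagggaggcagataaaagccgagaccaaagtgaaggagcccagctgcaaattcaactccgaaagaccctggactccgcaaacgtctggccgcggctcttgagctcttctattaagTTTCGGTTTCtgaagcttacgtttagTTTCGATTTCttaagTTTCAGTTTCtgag

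IFIT1 measured 2.13, 2.28 and 1.87 CPM in sgCtrl and 1.02, 1.51 and 1.31 CPM in sgCOX4I1. The groups did not overlap, but the log2 fold change of -0.71 (SE 0.28) had an adjusted p of 0.211. IFIT5 measured 0.436, 0.652 and 0.540 CPM in sgCtrl and 1.25, 1.28 and 1.09 CPM in sgCOX4I1, from 8, 12 and 11 counts and 28, 22 and 34 counts. Here all sgCOX4I1 libraries were above all sgCtrl libraries, with a log2 fold change of 1.13 (SE 0.36). Since 2 of the sgCtrl and all 3 sgCOX4I1 libraries reached the level that the filter asks for, IFIT5 was tested mainly through the group where it is high, and its values are given as a description. IFIT2 ranged from 2.13 to 2.23 CPM in sgCtrl and from 1.25 to 2.56 CPM in sgCOX4I1, and IFIT3 from 2.12 to 2.51 CPM and from 1.20 to 2.85 CPM. For both, sgCOX4I1 #2 was the highest of all 6 libraries and the other 2 sgCOX4I1 libraries were the lowest, and both had a log2 fold change of -0.31 (SE 0.30 and 0.31).

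No membrane-bound restriction factor passed the threshold by edgeR with all 6 libraries. IFITM2, which hinders virus entry at endosomal membranes, measured 47.0, 39.5 and 30.6 CPM in sgCtrl and 37.2, 24.6 and 26.7 CPM in sgCOX4I1. The ranges overlapped through sgCtrl #3 and sgCOX4I1 #1 (log2 fold change -0.40, SE 0.16, adjusted p = 0.215). Without sgCOX4I1 #1 the estimate was -0.60 with an adjusted p of 0.0468. Its relative IFITM3 had a log2 fold change of -0.05 (SE 0.31). BST2 (tetherin), which holds budding virions at the cell surface, measured 72.3, 77.7 and 74.6 CPM against 72.1, 79.8 and 73.5 CPM. Its log2 fold change was 0.0036 (SE 0.075). Per kilobase of transcript BST2 was the highest of the 40 genes, at 74.8 CPM per kilobase in sgCtrl and 75.0 in sgCOX4I1, compared with 8.40 and 3.96 for HSH2D.

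The OAS genes, whose products make the oligoadenylate that activates RNase L on double-stranded RNA, had 4 estimates below 0. OAS1, at chr12:112905856-112933219 on the plus strand of GRCh38, measured 8.23, 7.76 and 5.50 CPM in sgCtrl and 3.07, 4.53 and 3.84 CPM in sgCOX4I1. The groups did not overlap, although sgCtrl #3 came within 1 CPM of sgCOX4I1 #2. OAS1 fell to 53.2% of the sgCtrl mean, from 7.17 ± 1.46 to 3.82 ± 0.731 CPM (SD, n = 3 each), with a log2 fold change of -0.91 (SE 0.21, adjusted p = 0.0369). Without sgCOX4I1 #2 the estimate was -1.04 with an adjusted p of 0.0964. OAS2 measured 10.4, 8.91 and 7.42 CPM in sgCtrl and 5.03, 7.79 and 7.71 CPM in sgCOX4I1. Only sgCOX4I1 #1 lay outside the sgCtrl range (log2 fold change -0.38, SE 0.19, adjusted p = 0.329). OAS3 measured 4.20, 4.18 and 5.26 CPM against 3.88, 3.37 and 3.55 CPM, without overlap (log2 fold change -0.34, SE 0.19, adjusted p = 0.401). OASL, which lacks the synthetase activity of its relatives, was under 1 CPM in all libraries (log2 fold change -0.37, SE 0.37). Summed over the family, the level was 23.7, 21.8 and 18.9 CPM in sgCtrl and 12.6, 16.5 and 15.7 CPM in sgCOX4I1.

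The promoters of OAS1 and its neighbour OAS3 are printed because OAS1 fell and the 2 windows differ in matches to the letters searched. They are given as above, with OAS1 at chr12:112906782-112906971 and OAS3 at chr12:112938294-112938483. Capitals in OAS3 mark the response element on the printed strand, and capitals in OAS1 mark a match to the gamma-activated site TTCNNNGAA.
OAS1: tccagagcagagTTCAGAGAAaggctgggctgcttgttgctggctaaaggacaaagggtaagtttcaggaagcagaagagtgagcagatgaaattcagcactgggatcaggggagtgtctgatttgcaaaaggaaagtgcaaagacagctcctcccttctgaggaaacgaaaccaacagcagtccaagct
OAS3: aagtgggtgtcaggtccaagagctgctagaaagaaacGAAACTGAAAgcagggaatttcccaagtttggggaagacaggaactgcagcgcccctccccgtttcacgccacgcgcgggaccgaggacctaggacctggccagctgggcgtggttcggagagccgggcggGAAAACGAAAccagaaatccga

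The absence of the response element letters from the OAS1 window says only that these letters are not in it. That window does hold gaaacgaaa shortly before the start. This is GAAA, a single base and GAAA, which a search with 2 bases between cannot match, so OAS1 is not shown to lack the element. OAS3 held matches at positions -143 and -12, IFIT1 at -116 and -103, and IFIT5 at -45, -19 and -4. In the RefSeq table of windows from 250 bases before to 50 bases after the start, 30 of the 40 genes had an entry, and HSH2D, IRF7, DHX58, IFIT2, IFITM2, OAS2, OASL, MX2, USP18 and TRIM22 had none. The response element, searched on both strands, was found for 21 of the 30 genes and for 4.38% of all 27305 genes in the table. TTCNNNGAA was found for 10 of the 30 and for 9.38% of all genes, and the matches of the 2 motifs overlapped in some windows, as the map of matches shows. The 18 tested genes with a response element match had a median log2 fold change of -0.08, with 12 estimates below 0 and 6 above. The 6 include IFIT5 and EPSTI1, which passed the filter on low counts mainly through the sgCOX4I1 libraries. Those without a match were 9, with a median of -0.09, 5 below 0 and 4 above.

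**Figure D3:**
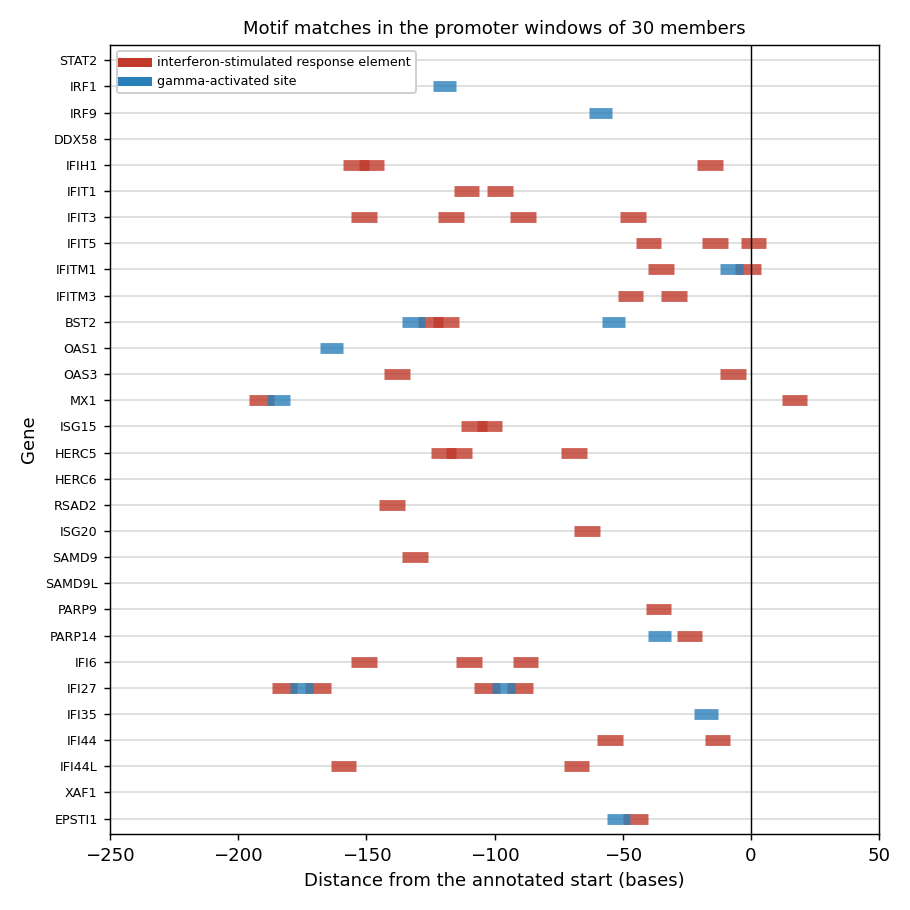
Position of matches to the interferon-stimulated response element (red) and the gamma-activated site (blue) in the promoter windows of the 30 genes with an entry, in bases from the annotated start, on either strand. Response element matches are found for 21 genes, mostly in the stretch before the start. OAS1, IRF1, IRF9 and IFI35 show only a gamma-activated site under the letters searched, which miss a form with other spacing in OAS1.

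The MX GTPases, which trap viral nucleocapsids, overlapped between groups. MX1 ranged from 1.30 to 1.91 CPM in sgCtrl and from 1.16 to 1.66 CPM in sgCOX4I1, and MX2 from 2.56 to 5.43 CPM and from 2.98 to 3.71 CPM. ISG15, a ubiquitin-like protein attached to other proteins, measured 18.8, 17.8 and 13.2 CPM in sgCtrl and 14.7, 16.2 and 12.9 CPM in sgCOX4I1. sgCtrl #3 lay among the sgCOX4I1 libraries (log2 fold change -0.19, SE 0.15). HERC5, the main ligase for ISG15, and its relative HERC6 had log2 fold changes of -0.01 and -0.11 (SE 0.22 and 0.24). USP18, which removes ISG15 and dampens signalling at IFNAR2, measured 6.76, 7.28 and 6.19 CPM against 8.60, 7.44 and 7.04 CPM (log2 fold change 0.19, SE 0.15). The lowest adjusted p of these 6 genes was 0.547, for ISG15.

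TRIM22, a ubiquitin ligase that restricts several viruses and one of the most abundant genes of the set, moved in the opposite direction to IRF7 and OAS1. TRIM22, at chr11:5689610-5737089 on the plus strand of GRCh38, measured 98.9, 110.0 and 117 CPM in sgCtrl and 131, 140 and 154 CPM in sgCOX4I1. The groups did not overlap. It rose 1.30-fold, from 109 ± 9.03 to 142 ± 11.8 CPM (SD, n = 3 each), with a log2 fold change of 0.38 (SE 0.086, adjusted p = 0.0356). Without sgCOX4I1 #2 the estimate was 0.39 with an adjusted p of 0.126. RSAD2 (viperin), an enzyme that makes a chain-terminating nucleotide, measured 8.01, 9.61 and 8.25 CPM in sgCtrl and 6.82, 6.63 and 5.24 CPM in sgCOX4I1. Its groups did not overlap (log2 fold change -0.48, SE 0.16, adjusted p = 0.146). SAMD9, a translation inhibitor, measured 22.5, 20.7 and 18.7 CPM against 16.9, 16.8 and 17.2 CPM, again without overlap (log2 fold change -0.28, SE 0.11, adjusted p = 0.193). Its paralog SAMD9L had a log2 fold change of 0.03 (SE 0.12), and ISG20, an exonuclease, had -0.41 (SE 0.31) at under 1.6 CPM.

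**Figure D4:**
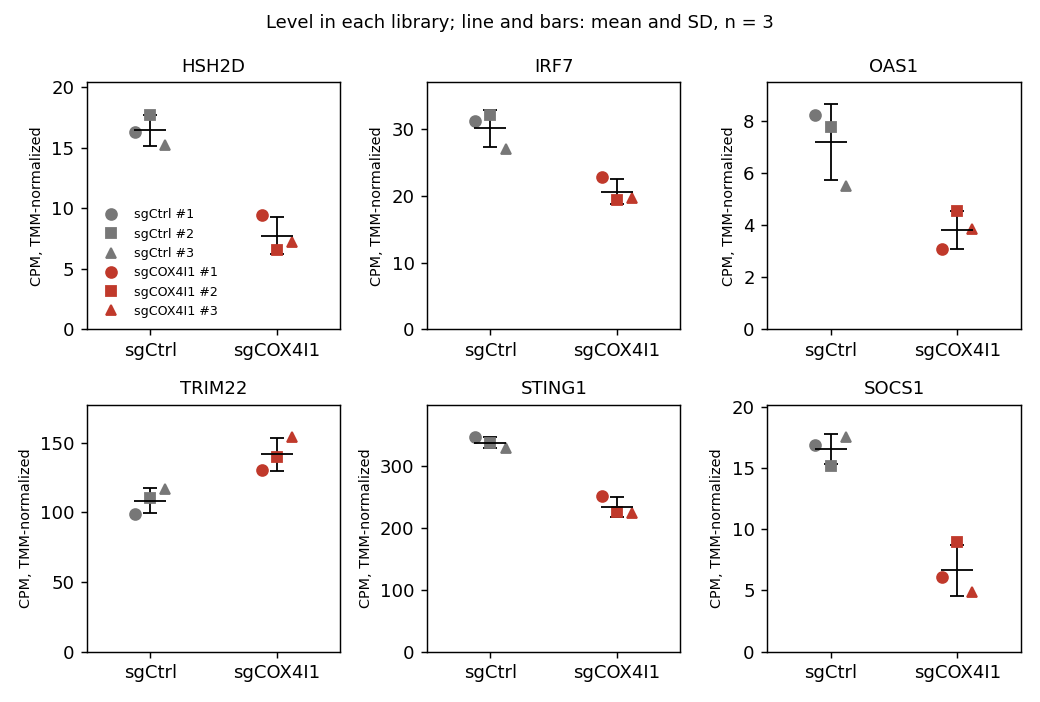
TMM-normalized CPM in each library for HSH2D, the 3 called interferon-stimulated genes and the 2 called genes of the wider pathway, with the mean and SD of 3 libraries in black and replicates by symbol. In each panel the 3 sgCOX4I1 libraries lie on 1 side of all sgCtrl libraries, above them for TRIM22 and below them for the others. The genes were picked by their difference in these same libraries, so this separation gives no support. Over all tested genes, 21.6% did not overlap between groups.

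The remaining genes showed small differences. PARP14, an ADP-ribosyltransferase, measured 61.5, 61.6 and 65.4 CPM in sgCtrl and 57.0, 58.1 and 60.5 CPM in sgCOX4I1, which did not overlap but differed by -0.10 on the log2 scale (SE 0.074, adjusted p = 0.518). Its relative PARP9 had 0.04 (SE 0.13). XAF1, a pro-apoptotic factor, measured 74.1, 84.9 and 85.6 CPM against 86.4, 88.0 and 99.7 CPM (log2 fold change 0.17, SE 0.085, adjusted p = 0.343), and 38.3% of its exon bases overlap the antisense gene PRAL. IFI35 ranged from 27.0 to 31.0 CPM in sgCtrl and from 24.4 to 26.9 CPM in sgCOX4I1 (log2 fold change -0.16, adjusted p = 0.412). IFI6 and IFI44 had log2 fold changes of 0.10 and -0.12 with overlapping groups. EPSTI1, at under 1 CPM in every library, had 0.48 (SE 0.46).

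Around these genes, the wider pathway was described with a list of 60 genes for ligands, receptors, signalling, sensing and feedback, of which 42 were tested. The 10 interferon genes in it had 0 counts in every library. In the rest 2 genes fell and 0 rose by edgeR, with 6 lower and 8 higher at an unadjusted p under 0.05, and the median log2 fold change was 0.04. Over all tested genes 2.08% were called, and 8.41% were lower and 8.9% higher at an unadjusted p under 0.05. STING1, the adaptor for cytosolic DNA, measured 348, 337 and 330 CPM in sgCtrl and 252, 227 and 224 CPM in sgCOX4I1. It fell by 0.53 on the log2 scale (SE 0.075, adjusted p = 0.0030), whereas its partner CGAS, looked at after its values were seen, had a log2 fold change of 0.20 (adjusted p = 0.275). SOCS1, an inhibitor of JAK kinases that interferon itself induces, measured 16.9, 15.2 and 17.5 CPM in sgCtrl and 6.10, 8.95 and 4.89 CPM in sgCOX4I1. Its log2 fold change was -1.34 (SE 0.18, adjusted p = 0.0030), beside -1.08 for HSH2D, and its groups did not overlap. Both remained called when any one library was left out, with adjusted p of at most 0.0457 for STING1 and 0.0440 for SOCS1. The list was chosen with earlier results of these data known. These calls, their persistence and the lack of overlap therefore give no independent support.

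Of the receptors and signal transducers named here, none passed the threshold by edgeR with all 6 libraries. IFNGR1, a chain of the interferon gamma receptor, had a log2 fold change of 0.31 (adjusted p = 0.0979), and its adjusted p lay between 0.0028 and 0.353 over the alternatives, under 0.05 in 4 of 13. TYK2, the kinase bound to IFNAR1, had -0.14 (adjusted p = 0.434). IRF3, which acts downstream of the sensors, measured 92.0, 108 and 101 CPM in sgCtrl and 77.2, 82.1 and 84.1 CPM in sgCOX4I1. The groups did not overlap, at a log2 fold change of -0.31 (SE 0.080, adjusted p = 0.0631). DESeq2 gave IRF3 an adjusted p of 0.0258, and over the alternatives it lay between 0.0030 and 0.312, under 0.05 in 4 of 13. IRF8, a myeloid lineage factor and the most abundant regulatory factor of the list, was at 662 ± 33.1 CPM in sgCtrl and 722 ± 15.4 CPM in sgCOX4I1 (SD, n = 3 each, adjusted p = 0.428). The other genes that the naming rule picked, with log2 fold changes in parentheses, were TLR8 (0.60), TRAF3 (0.31), TRIM25 (0.06), SAMHD1 (0.29), RNASEH2B (-0.25), ZC3HAV1 (0.20) and PTPN6 (-0.08). The lowest adjusted p among these was 0.134.

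**Figure D5:**
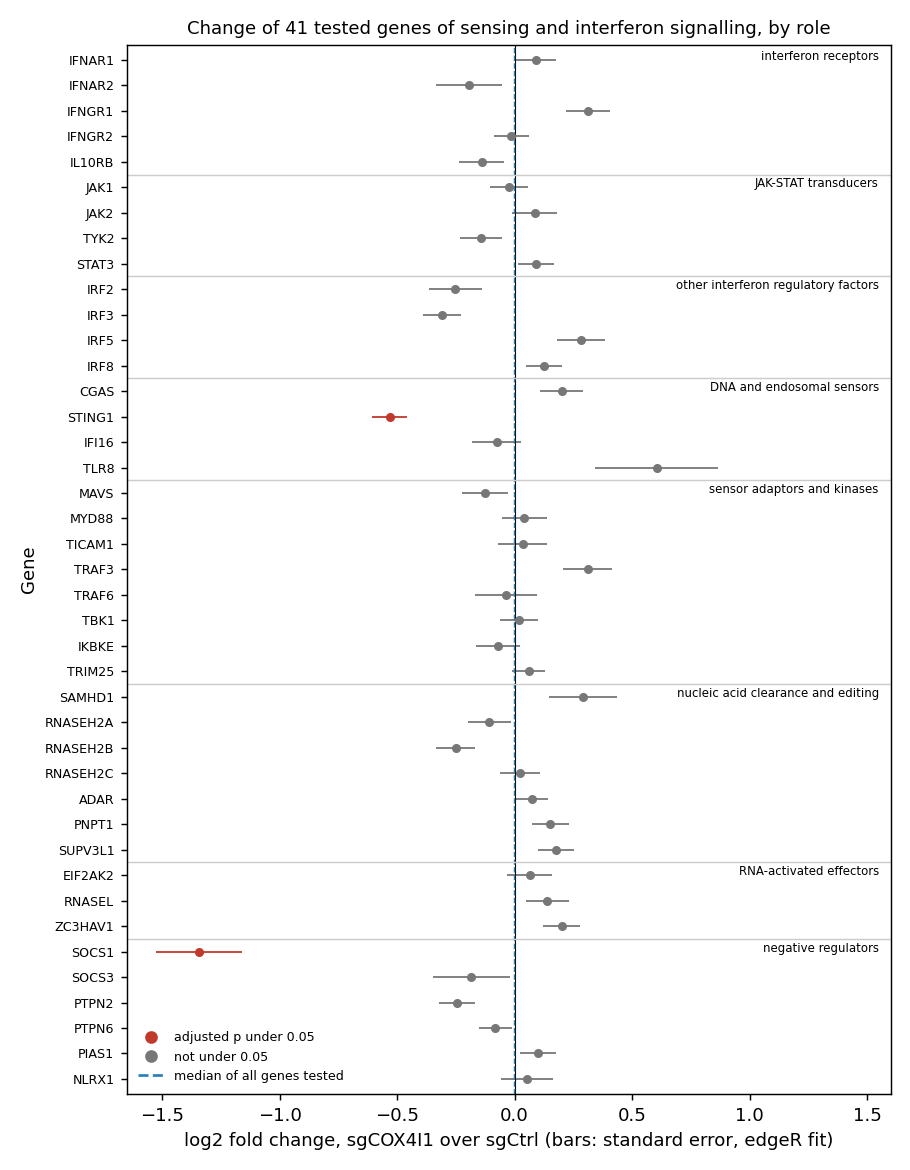
Log2 fold change of sgCOX4I1 over sgCtrl for 41 of the 42 tested genes of the wider sensing and interferon signalling list, in blocks by role, with bars for the standard error of the edgeR fit and a dashed line at the median of all tested genes. STING1 at -0.53 and SOCS1 at -1.34 had an adjusted p under 0.05.

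A further list of 41 interferon-induced genes outside the 40 had 34 tested, of which 0 were called by edgeR, 1 by DESeq2 and 0 by limma-voom, with 6 higher and 3 lower at an unadjusted p under 0.05 (8.9% and 8.41% of all tested genes). Its median log2 fold change was 0.0076. LY6E, the most abundant of them, had -0.15 (SE 0.084), and the chemokine CXCL10 had 1.09 (SE 0.60) at 0.0983 to 1.34 CPM with overlapping groups. The relatives of HSH2D were read from a list of 19 SH2 domain adaptors, of which 13 were tested and 1 fell, beside 1.02% of all tested genes called lower. GRAP, an adaptor of the GRB2 family in blood cells, measured 23.7, 25.2 and 23.6 CPM in sgCtrl and 17.6, 18.1 and 17.9 CPM in sgCOX4I1, a log2 fold change of -0.44 (SE 0.097, adjusted p = 0.0353). This call was lost in 5 of 13 alternatives, each leaving out a library other than sgCtrl #1, with adjusted p from 0.0513 to 0.219. GRB2 itself had 0.07 (SE 0.075) and SH2D4A had 1.05 (SE 0.39, adjusted p = 0.184). The SH2D4A counts were 10, 10 and 8 in sgCtrl and 18, 22 and 32 in sgCOX4I1. SH2D4A and CXCL10 passed the filter on low counts mainly through the sgCOX4I1 libraries, so their values are given as a description.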

How the data were processed

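RNA-seq was analysed from 6 Molm13-Cas9 libraries, 3 sgCtrl and 3 sgCOX4I1. The deposited table holds whole-number read counts per gene symbol that the authors did not normalize, and all sample columns were used (0 left out), matched to samples by letter and number. The methods describe Bowtie2 and RSEM, whereas the submitters' processing notes name bcl2fastq 2.20.0.422, STAR 2.6.0a and edgeR, and the column names point to marked duplicates and HTSeq, so the counting rule for shared or overlapping genes is uncertain. In R 4.3.3, edgeR 4.0.16 gave TMM-normalized CPM, the filter on low counts (minimum count 10) and the quasi-likelihood test without covariates, adjusted by Benjamini-Hochberg over 11861 genes, with calls at an adjusted p under 0.05. The fits were first tested on simulated data. The changes planted there were larger than those of IRF7, OAS1 and TRIM22 and left out the scarcest genes, so small changes and scarce genes were not covered. With 3 libraries a group, an exact two-sided permutation test cannot go below 0.1. Levels per kilobase used the canonical transcript of GENCODE on GRCh38. Pairs of replicates differed by more than sampling noise (chi-square per degree of freedom 10.6 to 26.6), so none was a copy.

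The members and lists were chosen with earlier results of these data known. Named beside the members were genes of the lists with an adjusted p under 0.05, and in each functional group the most abundant and the most changed gene tested, except 1 gene that is not reported here. Alternatives were DESeq2 1.42.0, limma-voom with limma 3.58.1, library size without TMM, DESeq2 size factors in edgeR, no filter, at least 10 counts in every library, the replicate number as a block, and each library left out in turn.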

Additional observations from a re-analysis of the deposited data

How the results depend on the processing

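IRF7, OAS1 and TRIM22 kept their direction under every alternative and were called under all 6 other tools, normalizations and filters and under the replicate block. The HSH2D estimate lay between -1.09 and -1.07 under these, and the median of the interferon-stimulated genes without it between -0.14 and -0.10 over all alternatives. Leaving out 1 library at a time moved the number of the 36 called from 0 to 3, those called lower from 0 to 2, those called higher from 0 to 1 and those called with a 2-fold change from 0 to 1, where the 1 arose without sgCtrl #3. It moved the calls over the whole table from 24 to 561, the SH2 adaptors called from 0 to 1, and COX4I1 from -1.90 to -0.95. IRF7 and TRIM22 lost their calls without sgCtrl #2 (adjusted p 0.175 and 0.209), sgCOX4I1 #2 (0.110 and 0.126) and sgCOX4I1 #3 (0.0856 and 0.145), and OAS1 without these (0.239, 0.0964 and 0.105) and without sgCOX4I1 #1 (0.0851). The cause was not tested.

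DESeq2 called 436 genes over the whole table and 1 further interferon-induced gene. Without a filter there were 537 calls over the table, 4 in the pathway list and 1 further interferon-induced gene, and COX4I1 was at -1.20 (adjusted p = 0.00020). By limma-voom COX4I1 was at -1.40 (adjusted p = 0.0291). Whether the replicate numbers pair the libraries is not settled. Same-numbered deviations from the group means correlated at 0.38, -0.024 and 0.29. For #1 and #3 these were the highest correlations, whereas sgCtrl #2 was near 0 with every sgCOX4I1 library (-0.033 to 0.064). With the replicate block, 1408 genes were called over the table, 5 of the 36 (IFITM2 and RSAD2 beside the 3), 4 of them lower, 10 in the pathway list, 4 further interferon-induced genes and 3 SH2 adaptors, with COX4I1 at -1.39 (adjusted p = 0.00018).

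Genes near 0 changed sign, none of them with a call. MX1 was -0.0060 by DESeq2 and -0.0023 with the replicate block, IFIH1 0.0064 without TMM and HERC5 0.010 by limma-voom. With 1 library left out the ranges crossed 0 for BST2 (-0.040 to 0.033), HERC5 (-0.17 to 0.10), HERC6 (-0.29 to 0.17), IFI44 (-0.32 to 0.063), IFI6 (-0.15 to 0.33), IFIH1 (-0.062 to 0.028), IFITM3 (-0.48 to 0.20), IRF9 (-0.13 to 0.29), MX1 (-0.091 to 0.20), MX2 (-0.45 to 0.066), PARP9 (-0.051 to 0.15) and SAMD9L (-0.041 to 0.11). Depth limits the scarce genes most, and the largest SE among the 36 genes was 0.46, for EPSTI1 at under 1 CPM.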
